A study of Mus musculus with 6 samples.

Results

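The genes of ceramide breakdown and ceramide assembly were followed in mouse brain with and without an active human SRY transgene. The group held 10 of the 18138 gene symbols of the expression table and 19 of its 25697 probes. The members were Asah3l (now Acer2), Asah1, Asah2, Lass1, Lass2, Lass4, Lass5, Lass6 (the Lass genes are now Cers), Ugcg and Sphk1. They were chosen by function around Asah3l, which had itself been selected from its measured difference between the genotypes in these same arrays. The genotype values of the members are therefore given as a description with intervals. Where a member is said to pass or miss a threshold, this describes the fit over all probes and is no evidence about the member.

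SRY, carried on the Y chromosome, starts testis formation. The study asked how expression in brain, heart, lung and liver differs when the human gene is switched on outside the testis, and only brain is followed here. Whole brains of male FVB mice (FVB/N in the methods) at postnatal day 6 were hybridized to Illumina MouseRef-8 bead arrays, 3 for hSRY-OFF and 3 for hSRY-ON. In both groups a single-copy Signalox-hSRY transgene sat at the H11 locus behind the ubiquitous CAG promoter. In hSRY-OFF mice the transgene was unrecombined and the promoter drove the red fluorescent protein DsRed2. In hSRY-ON mice Cre had removed the DsRed2 cassette, so that the promoter drove FLAG-tagged human SRY and EGFP, rather than the promoter of Sry itself. The recombination came from Cre carried in the oocyte of a Ddx4-Cre mother, and the hSRY-ON mice used for the arrays had not inherited the Cre transgene. All animals came from 1 integration site, so the arrays compare alleles of a single line.

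Ceramide is the central lipid of sphingolipid metabolism. Ceramide synthases join a fatty acid to a sphingoid base, each preferring certain chain lengths, and ceramidases cut the fatty acid off again to release sphingosine. Ceramide is also passed on to sphingomyelin, to glucosylceramide and the gangliosides of neurons, and to galactosylceramide, the lipid that oligodendrocytes put into myelin.

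The windows around the transcription starts were looked up for the members in RefSeq's GRCm38.p6 annotation, each with 250 bases before and 50 bases after the start. Of the 10 members 9 had such a window, 14 windows in all. The window of Asah3l is shown because its signal differed most between the genotypes, and that of Lass1 because it was the ceramide synthase whose arrays did not overlap. Acer2 lies at chr4:86874348-86932524 and its window is chr4:86874164-86874463 on the plus strand. Cers1 lies at chr8:70315775-70331588 and its window is chr8:70315525-70315824, also on the plus strand. Both are written 5′ to 3′, with GGGCGG on either strand, the GC box, in capitals.
Acer2: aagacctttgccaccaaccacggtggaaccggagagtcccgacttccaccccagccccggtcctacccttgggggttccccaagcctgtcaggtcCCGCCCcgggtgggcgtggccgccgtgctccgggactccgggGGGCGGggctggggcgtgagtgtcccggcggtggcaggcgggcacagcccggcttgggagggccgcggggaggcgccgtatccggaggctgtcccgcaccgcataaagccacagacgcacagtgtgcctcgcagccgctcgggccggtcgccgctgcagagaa
Cers1: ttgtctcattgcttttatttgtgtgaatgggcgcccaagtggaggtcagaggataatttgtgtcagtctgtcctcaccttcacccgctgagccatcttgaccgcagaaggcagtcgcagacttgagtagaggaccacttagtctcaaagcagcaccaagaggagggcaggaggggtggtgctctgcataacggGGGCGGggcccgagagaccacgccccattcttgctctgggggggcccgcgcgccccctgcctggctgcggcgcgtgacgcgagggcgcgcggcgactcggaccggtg

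The Acer2 window held 2 GC boxes and was 73% G and C, and the Cers1 window held 1 and was 62.7% G and C, against a median of 52.7% over the 32851 windows of the table. The windows of the other members ranged from 49.3% (Asah2, 0 GC boxes) to 81.3% (Ugcg, 2 GC boxes), and that of Cers5 held 3. The GC box occurred in 6 of the 14 member windows and in 35.7% of all windows. The SRY and SOX core was searched as AACAAT and as AACAAA on both strands, and neither form occurred in any of the 14 windows, while 10.7% and 20.2% of all windows held them. These cores are rich in A and T, and most member windows were richer in G and C than the median window. The shares therefore cannot be compared directly. Windows of a gene with several starts can overlap, and a match or its lack describes only these letters in these windows.

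Signals are normalized log2 intensities, on which a difference of 1 is a doubling, and all differences are hSRY-ON minus hSRY-OFF. Of all probes, 14215 were tested, and the middle of their differences lay between -0.14 and 0.14 around a median of 0.00. In the limma fit 308 probes were called at an adjusted p under 0.05, 120 higher and 188 lower. hSRY-ON array 3 stood apart on the second principal component, which held 18.5% of the variance, at -22.20 against 0.05 to 8.92 for the other arrays. Without that array 417 probes were called. Without hSRY-OFF array 1, 2 or 3 the fit called 0, 1 and 0 probes, and without hSRY-ON array 1 or 2 it called 1 and 0, with 2236 to 2690 probes at an unadjusted p under 0.05. Every call given for a gene below is from the fit with all 6 arrays.

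All 10 members had at least 1 tested probe, 14 probes in all. Of the 19 member probes, 13 were detected above background on all 6 arrays, 4 on none, and 5 were not tested. Among the 14 tested probes 1 was called, that of Asah3l, beside 2.17% of all tested probes. The hSRY-ON arrays lay wholly above the hSRY-OFF arrays for 1 probe, wholly below for 2 and overlapped for 11, whereas the groups did not overlap for 27.7% of all tested probes. At an unadjusted p under 0.05 there were 2 member probes, those of Asah3l and Lass1, beside 20.9% of all tested probes. The median difference of the 14 probes was 0.03, with 8 above 0 and 6 below. Without Asah3l, the remaining 13 probes had a median of 0.02 and ranged from -0.45 to 0.29. Since Asah3l was selected on this contrast, no inference is drawn from these counts.

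**Figure D1:**
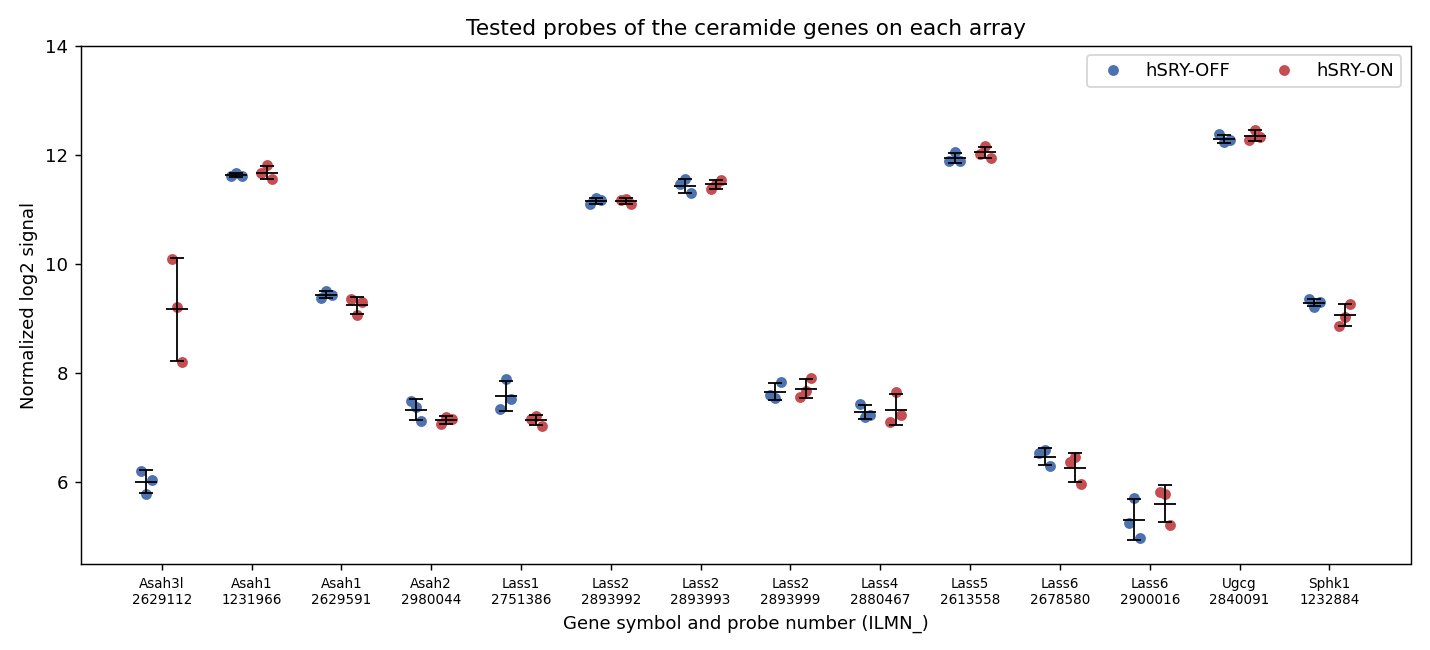
Normalized log2 signal of the 14 tested member probes on each array. Each point is 1 array (blue hSRY-OFF, red hSRY-ON), and the bars give the mean and SD of 3 arrays. The groups stand clearly apart for Asah3l, where hSRY-ON lies between 8.21 and 10.09 and hSRY-OFF between 5.79 and 6.20. Levels of different probes cannot be set against each other.

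Asah3l encodes the alkaline ceramidase of the Golgi, which releases sphingosine from ceramide there. Its only probe, ILMN_2629112, read 6.20, 5.79 and 6.05 in the hSRY-OFF brains (arrays 1, 2 and 3) and 10.09, 9.21 and 8.21 in the hSRY-ON brains. Every hSRY-ON brain was above every hSRY-OFF brain, and the lowest hSRY-ON array exceeded the highest hSRY-OFF array by 2.01. The means were 6.01 ± 0.21 (SD, n = 3) and 9.17 ± 0.94 (SD, n = 3), a difference of 3.16 (SE 0.42, 95% interval 2.16 to 4.16) or 8.93-fold. In size this was rank 1 of the 14215 tested probes. In whole-brain RNA more cells with a transcript and more transcript per cell cannot be told apart, here and for all genes below.

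The hSRY-ON brains differed widely among themselves in Asah3l. Their readings spanned 1.88 on the log2 scale, against 0.41 for the hSRY-OFF brains. By SD over the hSRY-ON arrays the probe ranked 9 of 14215, and over the hSRY-OFF arrays 2907. hSRY-ON array 1 was the highest, array 2 intermediate and array 3, which also stood apart over all probes, the lowest.

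The deposited intensities, before any correction, showed the same order. They were 239.3, 204.5 and 212.6 on the hSRY-OFF arrays and 1265.4, 713.0 and 433.7 on the hSRY-ON arrays. The background inferred from the detection p-values lay between 160.0 and 173.5 on the 6 arrays, so the probe stood 39.3 to 65.8 units above it in hSRY-OFF and 268.6 to 1096.3 in hSRY-ON. In hSRY-OFF, Asah3l was thus close to the floor of the array, though detected on all 6 arrays. The mean intensities were 219 ± 18.2 (SD, n = 3) and 804 ± 423 (SD, n = 3), a ratio of 3.68, and the lowest hSRY-ON array was 1.81 times the highest hSRY-OFF array.

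Because the hSRY-OFF signal was so near background, the size of the difference depended on how background was removed. It was 3.46-fold (1.79 on the log2 scale) with no background correction and 5.16-fold (2.37) with a correction fitted on the signals and an offset of 50, and the probe passed the threshold in both. Median scaling gave 3.14 and cyclic loess 3.16. It also passed without hSRY-ON array 3, where the difference was 3.64. It did not pass without hSRY-OFF array 1 (3.24), 2 (3.05) or 3 (3.18), or without hSRY-ON array 1 (2.69) or 2 (3.15). As the probe was selected on these values, passing the threshold here is no measure of how stable its difference is.

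**Figure D2:**
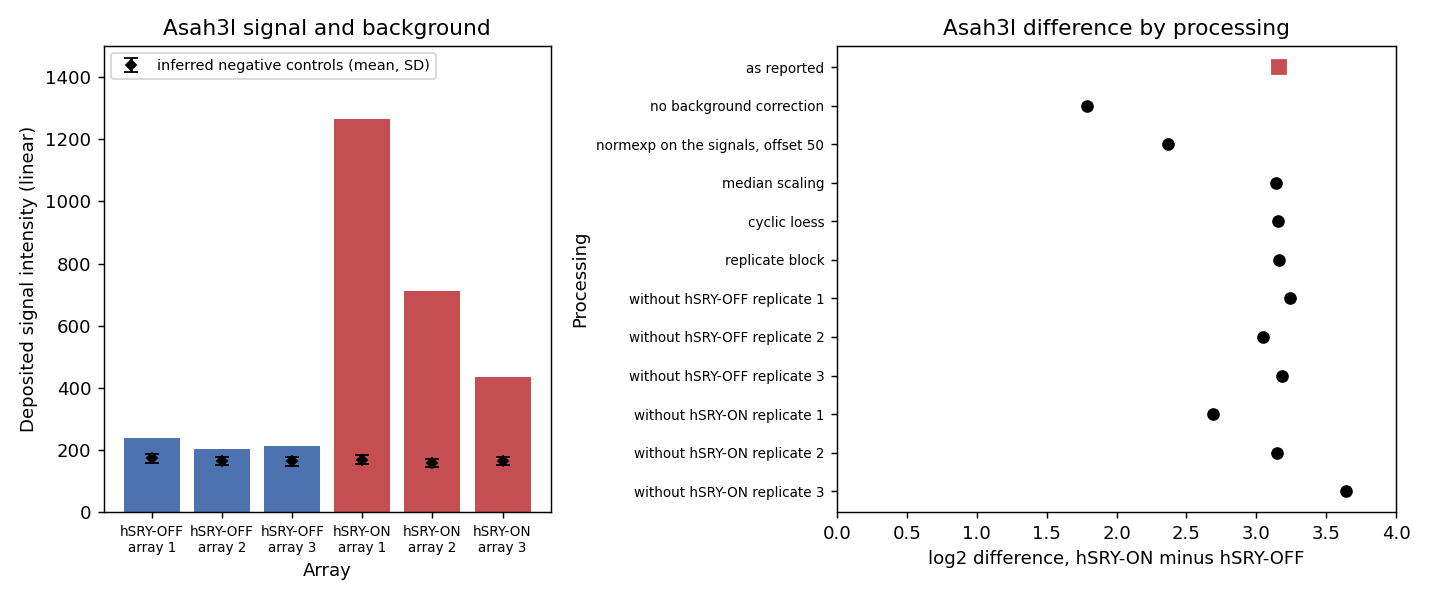
Left, deposited linear intensity of the Asah3l probe on each array (bars) with the mean and SD of the inferred negative controls (diamonds). Right, its log2 difference (hSRY-ON minus hSRY-OFF) as reported (red square) and under other processing (black points). The hSRY-OFF bars lie just above background, between 204.5 and 239.3, and the difference ranges from 1.79 to 3.64.

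The group held 2 other ceramidases, whose 3 tested probes differed by -0.19 to 0.04. Asah1 encodes acid ceramidase, the lysosomal enzyme, and had 2 tested probes with differences of opposite sign. ILMN_1231966 read 11.62, 11.68 and 11.61 in hSRY-OFF and 11.66, 11.81 and 11.56 in hSRY-ON, a difference of 0.04 (SE 0.09, 95% interval -0.17 to 0.26) with overlapping groups. ILMN_2629591 read 9.38, 9.50 and 9.44 in hSRY-OFF and 9.36, 9.07 and 9.31 in hSRY-ON, where all hSRY-ON arrays were below all hSRY-OFF arrays by a mean of -0.19 (SE 0.10, 95% interval -0.43 to 0.04). The separation was narrow, with 9.36 the highest hSRY-ON and 9.38 the lowest hSRY-OFF value. The third Asah1 probe, ILMN_2717970, was detected on 0 arrays.

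Asah2 encodes neutral ceramidase of the plasma membrane. Its probe ILMN_2980044 read 7.49, 7.39 and 7.12 in hSRY-OFF and 7.07, 7.21 and 7.16 in hSRY-ON. The groups overlapped because hSRY-OFF array 3 was as low as the hSRY-ON arrays, and the difference was -0.19 (SE 0.11, 95% interval -0.45 to 0.08).

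Lass1 encodes the ceramide synthase of neurons, which makes long-chain ceramides. ILMN_2751386 read 7.35, 7.89 and 7.52 in hSRY-OFF and 7.16, 7.22 and 7.04 in hSRY-ON. All hSRY-ON brains were below all hSRY-OFF brains, with hSRY-OFF array 2 the highest. The means were 7.59 ± 0.28 (SD, n = 3) and 7.14 ± 0.09 (SD, n = 3), a difference of -0.45 (SE 0.15, 95% interval -0.79 to -0.10) or 0.735-fold, and the probe was not called. With no background correction the difference was -0.24, and without hSRY-OFF array 2, the highest array, it was -0.29.

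Lass2 encodes the synthase of very-long-chain ceramides, the chains found in myelin lipids, and was measured by 3 probes. ILMN_2893992 read 11.11, 11.21 and 11.18 in hSRY-OFF and 11.18, 11.20 and 11.10 in hSRY-ON. The difference was -0.01 (SE 0.08, 95% interval -0.18 to 0.18), and the values of the groups were interleaved. ILMN_2893993 differed by 0.02 (SE 0.10, 95% interval -0.20 to 0.25) and ILMN_2893999 by 0.05 (SE 0.12, 95% interval -0.24 to 0.34), both with overlapping groups. The 3 intervals together spanned -0.24 to 0.34.

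Lass5 and Lass6, which make ceramides of shorter chains, and Lass4, which makes long-chain ceramides, also overlapped between the genotypes. Lass5 (ILMN_2613558) differed by 0.10 (SE 0.09, 95% interval -0.12 to 0.32). Lass4 (ILMN_2880467) differed by 0.04 (SE 0.15, 95% interval -0.32 to 0.40), and its ILMN_2718499 was detected on 0 arrays. The 2 tested probes of Lass6 disagreed in sign: ILMN_2678580 was 6.54, 6.59 and 6.29 in hSRY-OFF and 6.37, 6.47 and 5.98 in hSRY-ON, a difference of -0.20 (SE 0.15, 95% interval -0.55 to 0.15). ILMN_2900016, detected on only 3 arrays, differed by 0.29 (SE 0.23, 95% interval -0.25 to 0.83), and ILMN_2685194 was detected on 0. Single arrays moved both: without hSRY-ON array 3 ILMN_2678580 differed by -0.05 and ILMN_2900016 by 0.49, and without hSRY-OFF array 3 ILMN_2900016 differed by 0.12.

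Ugcg and Sphk1 use the products of these enzymes. Ugcg, the glucosylceramide synthase that opens the path to gangliosides, read 12.38, 12.24 and 12.27 in hSRY-OFF and 12.27, 12.46 and 12.33 in hSRY-ON with ILMN_2840091. The groups overlapped and differed by 0.06 (SE 0.09, 95% interval -0.15 to 0.26). Sphk1 phosphorylates sphingosine, the product of the ceramidases, to the signalling lipid sphingosine phosphate. Its probe ILMN_1232884 read 9.35, 9.22 and 9.30 in hSRY-OFF and 8.87, 9.04 and 9.28 in hSRY-ON. hSRY-ON array 1 was the lowest and array 3 reached the hSRY-OFF range, and the difference was -0.23 (SE 0.12, 95% interval -0.50 to 0.04). Of the other Sphk1 probes, ILMN_2650336 was detected on 0 arrays and ILMN_2732199 on 1.

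**Figure D3:**
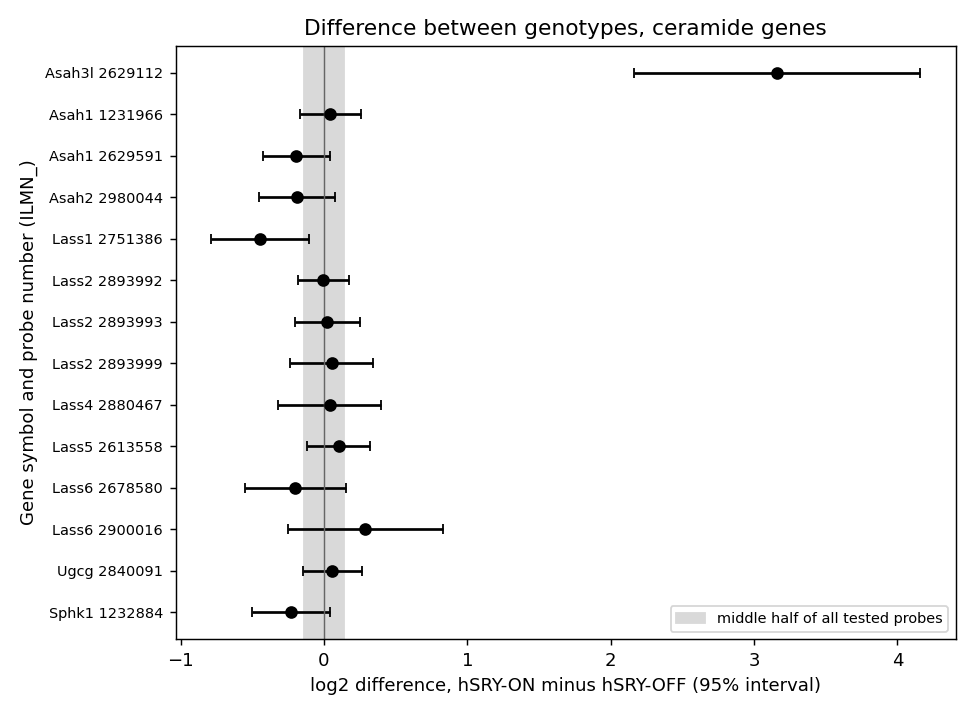
Difference in normalized log2 signal (hSRY-ON minus hSRY-OFF) of the 14 tested member probes with its 95% interval. The grey band spans the quartiles of all 14215 tested probes, -0.14 to 0.14. Asah3l lies at 3.16 and the other 13 probes between -0.45 and 0.29.

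Over the 6 arrays, Sphk1 had the correlation with Asah3l farthest from 0 among the members, at r = -0.85, and Lass1 followed at -0.75. After subtracting the group means, the correlation of Lass1 was -0.002 and that of Sphk1 was -0.86, so the array with the highest Asah3l signal within hSRY-ON also had the lowest Sphk1 signal. These are descriptions over 6 arrays that fall into 2 genotypes.

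The probes whose pattern was most like that of Asah3l over the 6 arrays were those of Edn1 (r = 0.997), Tmem82 (0.996), Kctd3 (0.994), Htra1 (0.994) and Prlr (0.994). Edn1 encodes the vasoconstrictor peptide endothelin, Htra1 a secreted serine protease and Prlr the prolactin receptor. Edn1 read 6.79, 6.52 and 6.69 in hSRY-OFF and 8.96, 8.27 and 7.90 in hSRY-ON, in the same order of hSRY-ON arrays as Asah3l. The differences were 1.71 for Edn1, 1.32 for Tmem82, 0.75 for Kctd3, 0.61 for Htra1 and 0.50 for Prlr. Asah3l itself separates the genotypes, so genes chosen by their correlation with it over all 6 arrays had to differ between them too.

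**Figure D4:**
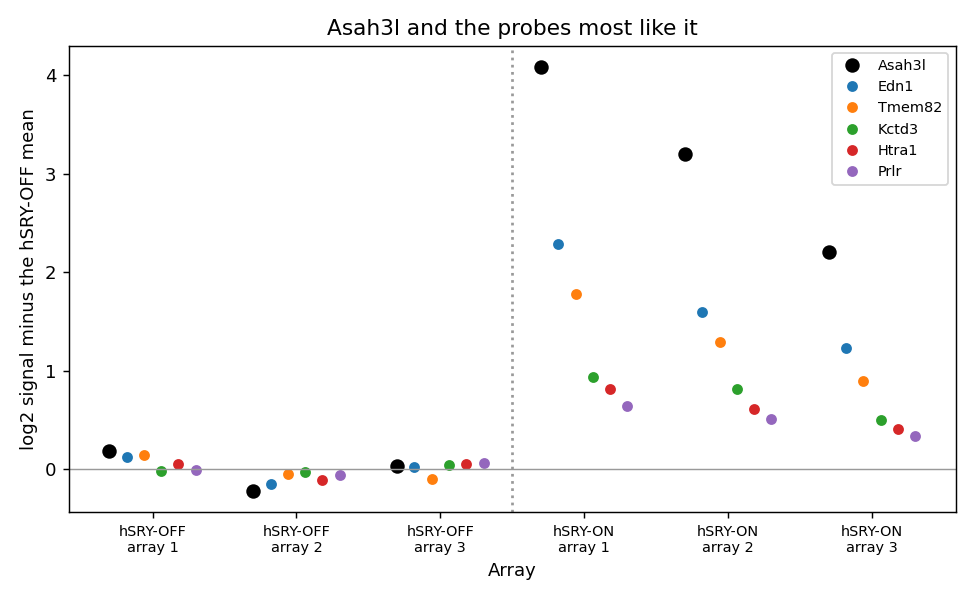
Normalized log2 signal minus the hSRY-OFF mean on each array (points, side by side) for Asah3l and the 5 probes of other genes most correlated with it over 6 arrays. Each has its highest value on hSRY-ON array 1, and Asah3l has the widest range of these genes.

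After subtracting the group means, the correlations of these 5 probes with Asah3l were 0.949 to 0.979. By this correlation of deviations the leading probes were those of Fkbp14, Abcf3, Caskin1, Rsn and Abtb1, of which Abtb1 had the lowest r, 0.998. Their differences between the genotypes were only 0.02, 0.04, 0.07, 0.03 and 0.17, and none was called. With 3 arrays in a group these deviations rest mainly on the order of the 3 hSRY-ON brains, array 1 highest and array 3 lowest.

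The other genes of sphingolipid metabolism were counted from a list by function, which held no member. The list was drawn up with earlier results of these data known, so its counts are descriptions. The table held 46 of these symbols with 60 probes, of which 17 were detected on no array and 43, of 35 symbols, were tested. In limma, 1 rose and 2 fell at an adjusted p under 0.05, and the others did not pass the test. The 3 called probes were 6.98% of the 43, where 2.17% of all tested probes were called. Their median difference was -0.08, with 12 probes above 0 and 31 below, against a median of 0.00 over all tested probes. At an unadjusted p under 0.05 there were 8 probes, or 18.6%, near the 20.9% of all tested probes.

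The 2 probes that fell were those of Fa2h and Ugt8a. Fa2h, the fatty acid hydroxylase whose products go into myelin lipids, read 9.28, 9.72 and 9.42 in hSRY-OFF and 8.47, 8.51 and 8.57 in hSRY-ON, with no overlap. It fell by 0.96 (SE 0.12, limma adjusted p = 0.0263). Ugt8a, the transferase that makes galactosylceramide from ceramide, read 9.66, 10.12 and 9.94 in hSRY-OFF and 8.97, 9.22 and 9.18 in hSRY-ON, and fell by 0.78 (SE 0.13, limma adjusted p = 0.0396). Gal3st1, which turns galactosylceramide into sulfatide, differed by -0.13 with overlapping groups (limma adjusted p = 0.423). The gene that rose was Tmem23 (now Sgms1), the sphingomyelin synthase of the Golgi. It read 8.19, 8.15 and 8.28 in hSRY-OFF and 8.73, 8.69 and 8.63 in hSRY-ON, higher by 0.48 (SE 0.08, limma adjusted p = 0.0348). Without hSRY-ON array 3 the limma adjusted p was 0.032 for Fa2h, 0.0403 for Tmem23 and 0.0562 for Ugt8a. None of the 3 was called when any other array was left out, hSRY-OFF array 1, 2 or 3 or hSRY-ON array 1 or 2, where their limma adjusted p was 0.0699 to 0.127.

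Of the genes closest to Asah3l in function, the alkaline ceramidase Phca (now Acer3) had 2 tested probes, both lower. ILMN_2681057 differed by -0.37 (SE 0.09, limma adjusted p = 0.0866) and ILMN_2669782 by -0.18 (SE 0.16, limma adjusted p = 0.57). Asah3 (now Acer1), the remaining alkaline ceramidase, had 2 probes, each detected on 0 arrays. The sphingosine kinase Sphk2 differed by -0.20 (SE 0.10, limma adjusted p = 0.301) and Sgpl1, the lyase that ends sphingosine phosphate, by 0.11 (SE 0.11, limma adjusted p = 0.595) at its brighter probe and by -0.05 (SE 0.09, limma adjusted p = 0.819) at the other. Sgpp2, a phosphatase that turns sphingosine phosphate back into sphingosine, had the difference farthest from 0 of that branch. It read 6.69, 7.20 and 6.82 in hSRY-OFF and 6.11, 5.92 and 6.38 in hSRY-ON, with no overlap, a difference of -0.76 (SE 0.17, limma adjusted p = 0.0662). It did not pass the test, but was called with no background correction, with the correction fitted on the signals and with a trended prior, and it was singled out after its values were seen. Phca was also called under these 3 settings and under a stricter filter. So was Gltp, a glycolipid transfer protein, which differed by -0.40 (SE 0.09, limma adjusted p = 0.0595) and was likewise singled out after its values were seen. In the synthesis of ceramide from serine, Sptlc1 of serine palmitoyltransferase differed by -0.08 (SE 0.08, limma adjusted p = 0.631) and the desaturase Degs1 by -0.01 (SE 0.09, limma adjusted p = 0.974). Sptlc2 was detected on 0 arrays. Lass3 and Cerk were not analysed here.

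**Figure D5:**
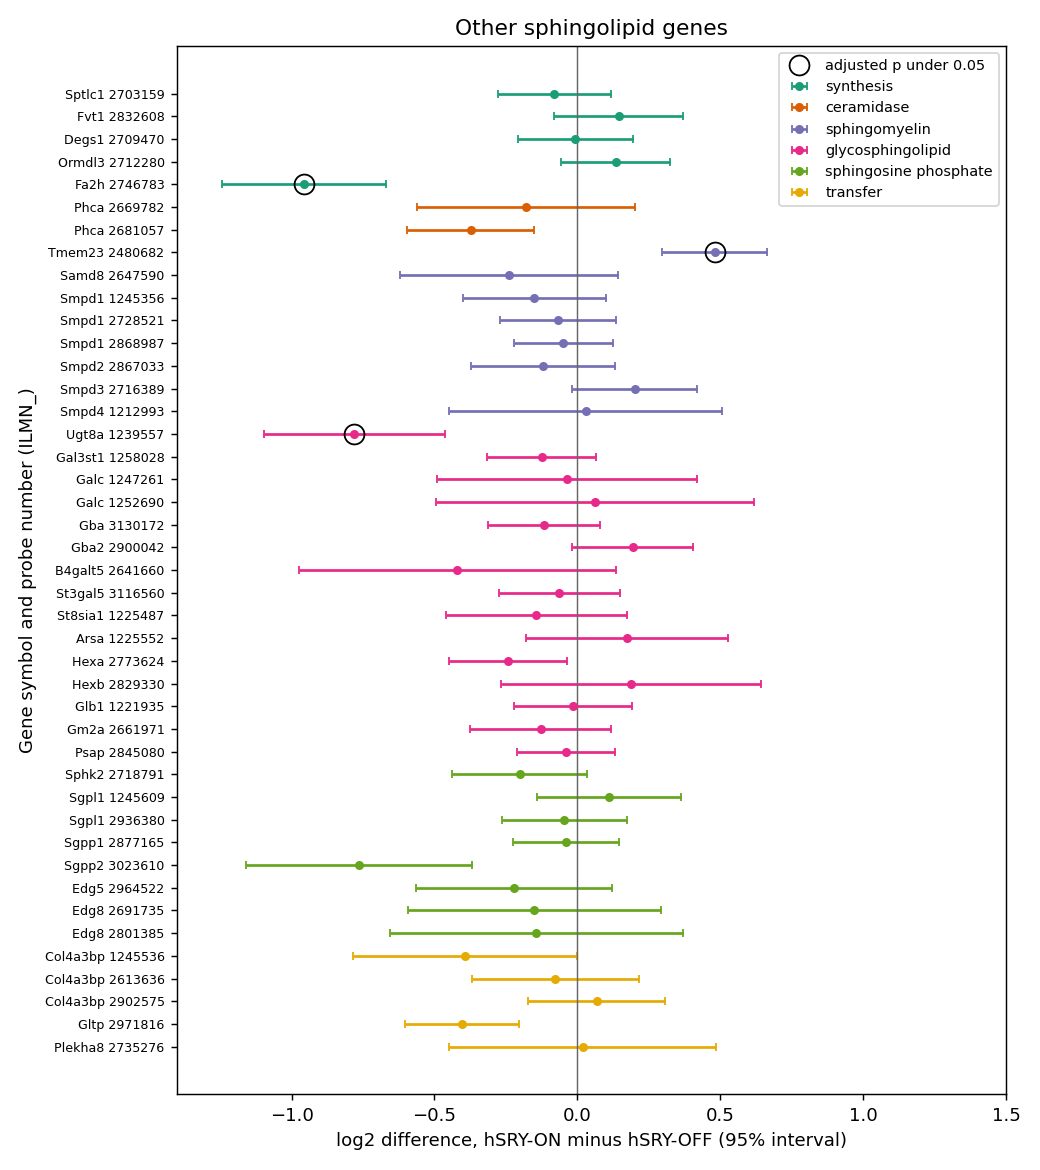
Difference in normalized log2 signal (hSRY-ON minus hSRY-OFF) of the 43 tested probes of other sphingolipid genes with its 95% interval, coloured by branch. Rings mark an adjusted p under 0.05: Fa2h at -0.96, Ugt8a at -0.78 and Tmem23 at 0.48.

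Markers of the cell types of the brain were summed over their tested probes on each array. The oligodendrocyte markers Mbp, Mobp, Mog, Mag and Cldn11 were all lower on average in hSRY-ON, 1 of 5 (Mobp) was called, and their summed linear signal was 27206 to 33928 in hSRY-OFF and 20357 to 21228 in hSRY-ON. Fa2h and Ugt8a moved with this list, while the Lass2 probes lay near 0, and the part of oligodendrocyte number in these values was not tested. All 4 choroid plexus markers (Ttr, Kl, Folr1 and Clic6) were higher on average, with 0 called, and their sum was 14639 to 17604 in hSRY-OFF and 18023 to 22612 in hSRY-ON. The sums also did not overlap for endothelium (5050 to 5583 and 3758 to 4560), fibroblasts (3684 to 3779 and 2431 to 3285) and microglia (1581 to 1833 and 1944 to 2150), with 0 called in each list. The 3 fibroblast markers were all lower, but the others were mixed, with 2 endothelial markers higher (Flt1 by 0.49) and 3 lower, and 3 microglial markers higher and 2 lower. A linear sum weighs the brightest probe most, here Cldn5 at -0.42 for endothelium and C1qb at 0.38 for microglia. The part of these cell types in the Asah3l difference was not tested. The sums overlapped for neurons, astrocytes and erythroid cells, and of the 5 astrocyte markers Aqp4 and Gfap were called lower, Slc1a2 differed by -0.22, Slc1a3 by 0.03 and Aldoc by 0.28. The neuronal markers Syt1, Tubb3 and Stmn2 were detected, whereas the probe of Snap25 was detected on 0 arrays.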

How the data were processed

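Total RNA of 6 whole brains was amplified, biotin-labelled and hybridized to MouseRef-8 bead arrays, and the study calls the 3 arrays of a group biological triplicates. Samples were grouped by the genotype in their labels. The authors deposited a mean bead intensity for each probe on each array, not normalized, and beside it a detection p-value against the negative controls. TCC, the package given in the methods for normalization and testing, is cited there with no settings and was not used here. The labels' processing notes name limma with no role.

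From these files, limma's neqc (version 3.58.1, in R 4.3.3) estimated the negative controls by way of the detection p-values, applied a normexp correction with an offset of 16, and gave quantile-normalized log2 signals. The tested probes, 14215 of 25697, had at least 3 of the 6 arrays with a detection p-value below 0.05. A model with genotype as its only term was fitted to every probe (lmFit and eBayes, two-sided, Benjamini-Hochberg over all tested probes, calls at an adjusted p under 0.05). Probes of a gene were kept apart. The median intensity per array was 200.2 to 219.8 and 13816 to 14377 probes were detected. The number of arrays limits the precision.

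The text names all member probes, the called probes of the other sphingolipid genes, a set of genes that make or use the same substrates (brightest probe; both probes are given for Phca and Sgpl1, and Sgpp2, Gltp and Gal3st1 were added after their values were seen), and the 5 probes most like Asah3l by each of 2 correlations. The members and lists were chosen with earlier results of these data known. The members were chosen by function around Asah3l, itself selected on this contrast, so no p-value is printed for a member, and counts of members past a threshold are descriptions. The steps were tested on simulated data with the same noise level for every probe. Asah3l varied far more among the hSRY-ON arrays, so that test says nothing about its difference. Other background corrections, normalizations, filters, a trended prior, a replicate block and leaving out each array were tried. Promoter windows and gene positions are RefSeq's (GRCm38.p6). Python 3.11.15 with matplotlib 3.10.9 made the figures. A marker gene of the oligodendrocyte list is not reported here and was left out of its sum.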

Additional observations from a re-analysis of the deposited data

How the results depend on the processing

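The number of called probes, 308 with the settings of the report, was 1317 with no background correction, 860 with a correction fitted on the signals, 123 with no filter on dim probes, 705 with a stricter filter, 1434 with a trended prior and 0 to 417 when 1 array was left out. The 3 called probes of the other sphingolipid genes became 6 with no background correction, 6 with the correction fitted on the signals, 6 with the trended prior, 5 with the stricter filter, 1 with no filter, and 0 to 2 when 1 array was left out. Of the member probes, 1 was called and 0 under the stricter filter, which left Asah3l untested because it was too dim in hSRY-OFF. Leaving out 1 array gave 0 to 1. The Asah3l difference of 3.16 was 1.79 with no background correction and 2.37 with the correction fitted on the signals, and lay between 2.69 and 3.64 when 1 array was left out. The cause of the other changes was not tested. Of 151 member values recomputed under the alternatives, 10 had the opposite sign, all among 5 probes of Asah1, Lass2 and Lass4 whose differences lay near 0.

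Same-numbered arrays did not deviate together (correlations of 0.04, 0.03 and 0.03), so the numbers were not taken as pairs. With the replicate block limma called 0 probes, with 2906 at an unadjusted p under 0.05, and therefore 0 member probes and 0 of the other sphingolipid genes, and the Asah3l difference was 3.16. Asah3l in hSRY-OFF and the dimmer Lass6 probe lay close to background, which limits how well their differences can be sized.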
